A study of Homo sapiens with 10 samples.

Results

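The transcripts of the aryl hydrocarbon receptor AHR and of 8 genes that work with it or answer to it were followed in PC-3, a cell line from a human prostate cancer, after 24 h with luteolin, gefitinib or both drugs. The 9 genes were AHR, its partner ARNT, its repressor AHRR, the cytochromes P450 CYP1A1, CYP1A2 and CYP1B1, the ADP-ribosyltransferase TIPARP, the aldehyde dehydrogenase ALDH3A1 and the glucuronosyltransferase UGT1A6. They were taken by name from the 28090 genes named on the array, and 12 of their 13 probes were bright enough to be tested. Compared with DMSO, CYP1B1 was 4.50-fold lower on the arrays labelled luteolin and 4.01-fold lower on those labelled with both drugs. CYP1A1 was 2.17-fold and at least 2.29-fold lower on these arrays. On the arrays labelled gefitinib 0 of the 9 genes were called. The AHR transcript itself was 1.94-fold lower there than with DMSO, short of the 2-fold needed for a call.

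AHR is a ligand-activated transcription factor that waits in the cytoplasm together with the chaperone HSP90. When it binds dioxin, a polycyclic aromatic hydrocarbon or one of several plant flavonoids, it enters the nucleus, pairs with ARNT and binds DNA sites that share the core GCGTG. Its best known targets are enzymes that oxidize or conjugate foreign compounds, together with AHRR and TIPARP, which restrain the receptor. Luteolin is a flavone from plants, and gefitinib inhibits the kinase of the EGF receptor.

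Each of 5 groups was measured on 2 single-color Agilent arrays, 10 arrays in all. The groups were untreated PC-3 cells at the start (0 h) and cells kept for 24 h with the solvent DMSO, with 60 µM luteolin, with 60 µM gefitinib or with both drugs at 60 µM each. The titles call the arrays of a group biological replicates and the design text speaks of duplicate runs, so the p-values measure the spread between these arrays, which may be technical. The labels and the scanner files disagree on the treatment of the 6 drug-treated arrays. Files of the arrays labelled luteolin are named for gefitinib, those of the arrays labelled gefitinib for the combination, and those labelled with both drugs for luteolin. Arrays are called here by their labels, and the sources used here do not settle the conflict. By the file names, CYP1B1 differed from DMSO by -2.005 with luteolin, -2.17 with gefitinib and -0.24 with both drugs on the log2 scale, so that the low levels then belonged to each drug alone.

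A level is given as the processed signal in percent of the array's 75th percentile, and a difference is on the log2 scale of that quantity. The 75th percentile was 1041 to 1402 on the 0 h, DMSO and luteolin-labelled arrays but 539.8 to 865 on the others, so a transcript with an equal raw signal stands higher on the latter. It was 651 and 628 under the gefitinib label against 1350 and 1283 with DMSO, so a gene that just reached a 2-fold rise there had about the same raw signal in both groups. The median difference from DMSO over all 19718 genes tested was 0.08 under the luteolin label, 0.22 under the gefitinib label and 0.16 under the label of both drugs. A gene was called at an adjusted p under 0.05 (Benjamini-Hochberg over all probes kept, limma model of all 10 arrays) and a difference of at least 2-fold. The arrays lay on 3 slides, and differences within a slide are given where it held both groups. Fewer cells of a type and less RNA per cell cannot be told apart in these bulk samples.

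The epithelial markers KRT8, KRT18, KRT19, EPCAM and CDH1 were well above background on all 10 arrays. So were EGFR, CD44 and VIM, which were listed with them for cells such as PC-3 and are not particular to epithelium. Signals were 247 to 584 for CDH1 and 63404 to 116476 for VIM. KLK3, which encodes prostate-specific antigen, was read by 3 probes that disagree, since the one for the reference transcript gave signals of 3.91 to 6.84 and another gave 13030 to 22098. Of 7 markers of blood, vessel and stroma, PTPRC, VWF, DCN and PDGFRB were on no array well above background, COL1A1 was on 9, and CD68 and PECAM1 were on all 10. Of the liver markers, ALB was well above background on 5 arrays, TTR on 1 and APOA2 on none.

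The 3 promoter windows shown are those of CYP1A1, a target called lower, of AHRR, of which 1 probe was called lower, and of TIPARP, a target with 2 copies of the core that was not called against DMSO under any label. They come from RefSeq (GRCh38.p14), run from 250 bases before to 50 bases after a start, and are written 5′ to 3′ along the gene with GCGTG, or its reverse complement CACGC, in capitals. CYP1A1 is at chr15:74725479-74725778 on the minus strand, the first window of AHRR at chr5:321464-321763 on the plus strand and the first window of TIPARP at chr3:156674340-156674639 on the plus strand.
CYP1A1: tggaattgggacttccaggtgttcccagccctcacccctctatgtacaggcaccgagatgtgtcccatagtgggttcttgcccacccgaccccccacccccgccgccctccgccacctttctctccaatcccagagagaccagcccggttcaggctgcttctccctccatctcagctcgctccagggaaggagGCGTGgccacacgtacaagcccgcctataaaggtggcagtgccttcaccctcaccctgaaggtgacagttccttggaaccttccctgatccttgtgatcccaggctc
AHRR: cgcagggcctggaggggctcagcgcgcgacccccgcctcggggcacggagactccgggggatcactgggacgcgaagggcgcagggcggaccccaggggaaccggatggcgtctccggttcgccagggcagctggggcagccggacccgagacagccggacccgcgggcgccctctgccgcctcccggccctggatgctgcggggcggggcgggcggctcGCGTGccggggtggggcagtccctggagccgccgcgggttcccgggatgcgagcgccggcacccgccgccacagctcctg
TIPARP: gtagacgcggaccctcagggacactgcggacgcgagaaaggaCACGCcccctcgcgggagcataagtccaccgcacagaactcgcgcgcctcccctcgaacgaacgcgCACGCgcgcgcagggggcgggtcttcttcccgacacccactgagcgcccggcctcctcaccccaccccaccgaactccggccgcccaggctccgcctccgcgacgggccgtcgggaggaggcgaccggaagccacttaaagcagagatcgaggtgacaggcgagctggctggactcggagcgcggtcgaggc
The core began 57 bases before the start of CYP1A1 and 30 bases before that of AHRR, on the strand of the gene. The TIPARP window held both of its copies on the other strand. Windows were listed for 7 of the 9 genes, 11 windows in all, and 6 of them, from AHR, AHRR, CYP1A1, TIPARP and UGT1A6, held the core on either strand, against 36.5% of all 35116 windows of this length. The longer TNGCGTG, which contains the core, stood in 2 of the 11, in the first windows of AHRR and UGT1A6, against 5.51% of all windows. ARNT and CYP1A2 held no core in these windows.

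**Figure D1:**
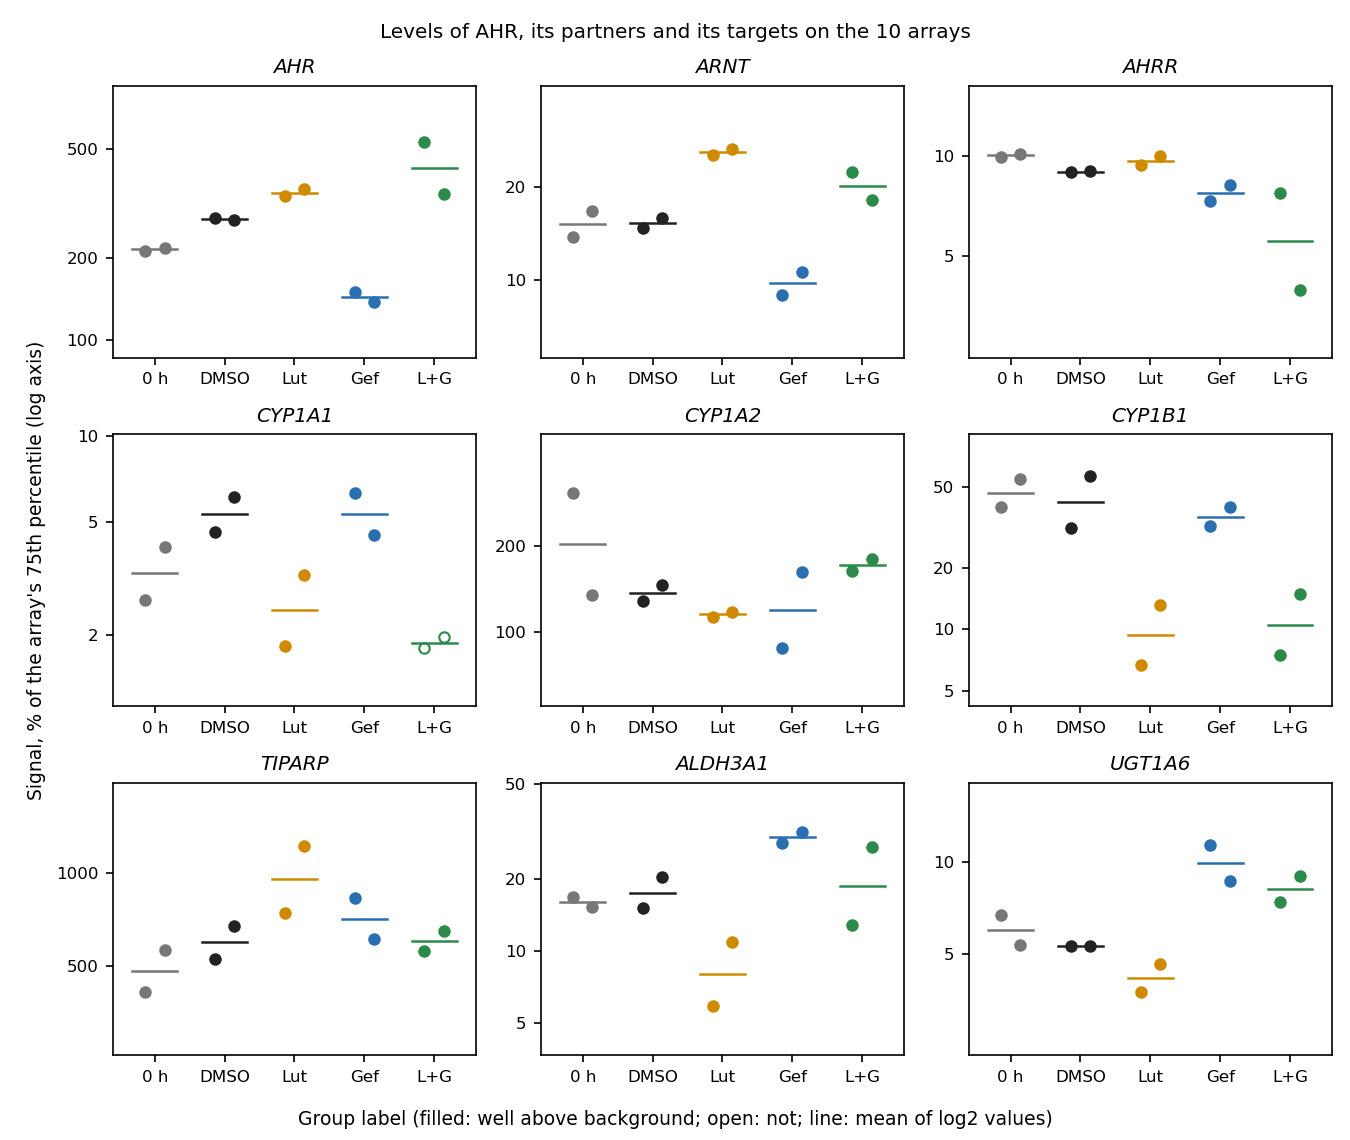
Levels of the 9 genes on each of the 10 arrays, in percent of the array's 75th percentile on a log axis, by group label (Lut, luteolin; Gef, gefitinib; L+G, luteolin plus gefitinib). Filled points were well above background, open points were not, and a line marks the mean of the log2 values. CYP1B1 lies between 6.70% and 14.9% on the 4 arrays whose labels include luteolin and between 31.6% and 56.8% on the other 6.

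The receptor gene AHR was lowest on the arrays labelled gefitinib and highest on those labelled luteolin plus gefitinib. It was read by 1 probe (hg18 chr7:17351524-17351583). Its level was 211% and 218% at 0 h, 280% and 276% with DMSO, 336% and 359% under the luteolin label, 149.5% and 137% under the gefitinib label, and 533% and 342% under the label of both drugs. The gefitinib-labelled arrays lay below all others, also in raw signal, at 973 and 864 against 3781 and 3545 with DMSO. Under the label of both drugs the raw signals of AHR were 4612 and 1846, on either side of DMSO. The difference of AHR from DMSO under the gefitinib label was -0.96 (SE 0.21, adjusted p = 0.00661 from limma), which passed the test but fell short of 2-fold. With normexp background correction it was -1.03 and with quantile normalization -1.04, and AHR was then called. By the file names this low level belonged to the combination, and gefitinib alone differed from DMSO by 0.32. AHR differed from DMSO by 0.32 (SE 0.21, adjusted p = 0.312 from limma) under the luteolin label and by 0.62 (SE 0.21, adjusted p = 0.0466 from limma) under the label of both drugs, below 2-fold. In the order of its group means no neighbors were called apart.

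ARNT, the partner that AHR shares with other factors of its family, was read by 2 probes that did not give the same picture. The brighter (hg18 chr1:149049668-149049727) read 13.8% and 16.7% at 0 h, 14.8% and 15.9% with DMSO, 25.3% and 26.4% under the luteolin label, 8.99% and 10.6% under the gefitinib label, and 22.4% and 18.1% under the label of both drugs. It lay above both control groups under the labels that include luteolin and below them under the gefitinib label, without overlap. Against DMSO it differed by 0.76 (SE 0.18, adjusted p = 0.0183 from limma) under the luteolin label and by -0.65 (SE 0.18, adjusted p = 0.0171 from limma) under the gefitinib label, both below 2-fold. The dimmer ARNT probe (hg18 chr1:149050626-149050685) differed by 0.63 (SE 0.21, adjusted p = 0.0618 from limma) and by 0.04 (SE 0.21, adjusted p = 0.886 from limma). The lower scaled level under the gefitinib label was thus seen with 1 of the 2 probes, and with normexp background correction the brighter probe gave -0.10. Before scaling both probes were lower under the gefitinib label than with DMSO. The brighter gave 58.5 and 66.8 against 199 and 204, and the dimmer 67.1 and 55.8 against 128 and 117.

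Of the genes that restrain the receptor, AHRR competes with AHR for ARNT and was near the background. Its brighter probe (hg18 chr5:488116-488175) read 9.98% and 10.2% at 0 h, 8.98% and 9.01% with DMSO, 9.42% and 10.03% under the luteolin label, 7.35% and 8.20% under the gefitinib label, and 7.77% and 3.94% under the label of both drugs. The last arrays spread most, and only 1 of them stood apart from the rest. AHRR differed from DMSO by -0.70 (SE 0.28, adjusted p = 0.0751 from limma) under the label of both drugs, and the sign turned with normexp background correction, to 0.05. The dimmer AHRR probe (hg18 chr5:491030-491089) read 5.56% and 6.01% with DMSO against 1.69% and 2.22% under the label of both drugs, where it was not well above background. It was at least 2.49-fold lower there (adjusted p = 0.00262 from limma).

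TIPARP, which adds ADP-ribose to AHR and ends its activity, was read by 1 probe (hg18 chr3:157907004-157907063). Its level was 413% and 563% at 0 h, 527% and 677% with DMSO, 746% and 1228% under the luteolin label, 830.4% and 611% under the gefitinib label, and 561% and 652% under the label of both drugs. The luteolin-labelled arrays lay above both control groups, and the other drug-treated groups overlapped with DMSO. TIPARP differed from DMSO by 0.68 (SE 0.29, adjusted p = 0.123 from limma) under the luteolin label, and from 0 h by 0.99 (SE 0.29, adjusted p = 0.0337 from limma), just below 2-fold. Under the labels of gefitinib and of both drugs the differences from DMSO were 0.25 and 0.02 (SE 0.29 each). The first of these turned to -0.13 with quantile normalization.

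CYP1B1, which hydroxylates estrogens and polycyclic hydrocarbons and is made mainly outside the liver, was lower than with DMSO under both labels that include luteolin. Its probe (hg18 chr2:38148948-38149007) was well above background on all 10 arrays. Its level was 40.1% and 54.8% at 0 h, 31.6% and 56.8% with DMSO, 6.70% and 13.3% under the luteolin label, 32.3% and 39.8% under the gefitinib label, and 7.46% and 14.9% under the label of both drugs. The levels fell into a high and a low set, and the low set was the 4 arrays whose labels include luteolin. Before scaling the gefitinib-labelled signals were 210 and 250, below the 427 and 729 with DMSO. They were above those of the low set, of which the highest was 138. Against DMSO, CYP1B1 differed by -2.17 (SE 0.44, adjusted p = 0.00989 from limma) under the luteolin label and by -2.005 (SE 0.44, adjusted p = 0.0102 from limma) under the label of both drugs, and by -0.24 (SE 0.44, adjusted p = 0.667 from limma) under the gefitinib label. Within slide 2 the differences were -2.24, -2.08 and 0.03 in this order, and within slide 3, which held no gefitinib-labelled array, they were -2.10 and -1.93. In the order of its group means the step from the gefitinib label down to the label of both drugs was called (1.76, adjusted p = 0.0122 from limma), and the 3 other steps were not. Without DMSO replicate 2 both calls were lost (-1.75 and -1.58, adjusted p = 0.0733 and 0.0713 from limma), and without luteolin replicate 1 the first was lost (-1.68, adjusted p = 0.0542 from limma).

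CYP1A1, whose induction is the usual readout of an active AHR, was close to background, with signals of 10.68 to 78.6. Its probe (hg18 chr15:72799615-72799674) read 2.67% and 4.08% at 0 h, 4.63% and 6.12% with DMSO, 1.84% and 3.27% under the luteolin label, 6.34% and 4.52% under the gefitinib label, and 1.80% and 1.98% under the label of both drugs. The last arrays were not well above background, and the arrays labelled gefitinib overlapped with DMSO. Before scaling the gefitinib-labelled signals were 41.2 and 28.4, below the 62.5 and 78.6 with DMSO. Against DMSO, CYP1A1 differed by -1.12 (SE 0.33, adjusted p = 0.0385 from limma) under the luteolin label, and under the label of both drugs it was at least 2.29-fold lower (adjusted p = 0.00982 from limma). It differed by 0.01 (SE 0.33, adjusted p = 0.986 from limma) under the gefitinib label. Against 0 h no label was called, with -0.43 (adjusted p = 0.363 from limma) under the luteolin label. With normexp background correction, which adds 50 to each signal, the differences from DMSO were -0.32 and 0.01 and neither was called. The call under the luteolin label was also lost without DMSO replicate 1 (-1.32, adjusted p = 0.0869 from limma), DMSO replicate 2 (-0.92, adjusted p = 0.205) or luteolin replicate 1 (-0.70, adjusted p = 0.199). That under the label of both drugs was lost without DMSO replicate 2 (-1.29, adjusted p = 0.0688 from limma).

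CYP1A2, the liver enzyme that metabolizes caffeine, was not called in any comparison of the main fit. Some alternative settings called it, such as the interaction with slide as a block. Its brighter probe (hg18 chr15:72834562-72834621) read 305% and 135% at 0 h, 128% and 145% with DMSO, 113% and 117% under the luteolin label, 88.1% and 162% under the gefitinib label, and 163% and 179% under the label of both drugs. The 0 h arrays and the gefitinib-labelled arrays lay far apart within their groups, and the range of the latter covered those of DMSO and of the luteolin label. The differences of CYP1A2 from DMSO were -0.24, -0.19 and 0.33 (SE 0.39 each). The other CYP1A2 probe, whose target spans a splice site (hg18 chr15:72830677-72831191), was well above background on 0 of the 10 arrays, with signals of 4.05 to 16.2, so the 2 probes disagree on whether the transcript was detected.

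**Figure D2:**
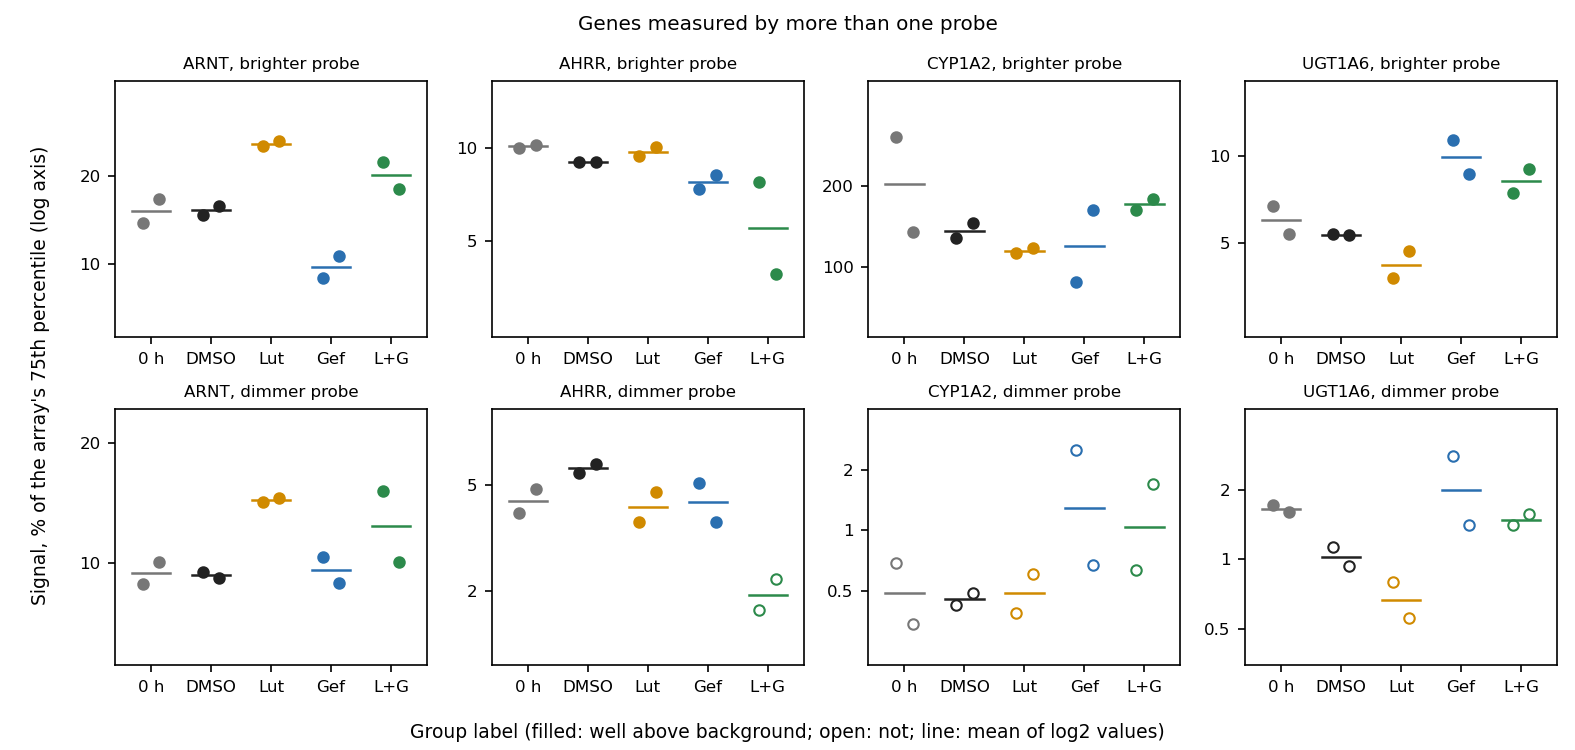
Levels of the 4 genes that 2 probes measured, in percent of the array's 75th percentile on a log axis, by group label. The upper row is the brighter probe, the lower row the dimmer one, filled points were well above background and a line marks the mean of the log2 values. ARNT is higher under the luteolin label with both probes, and CYP1A2 is detected with 1 of its probes.

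ALDH3A1, which oxidizes aromatic aldehydes, was read by a probe across a splice site (hg18 chr17:19584335-19585009). Its level was 16.8% and 15.2% at 0 h, 15.1% and 20.3% with DMSO, 5.87% and 10.9% under the luteolin label, 28.3% and 31.5% under the gefitinib label, and 12.8% and 27.2% under the label of both drugs. The luteolin-labelled arrays lay below and the gefitinib-labelled arrays above both control groups, without overlap. Neither difference from DMSO passed the test, at -1.13 (SE 0.39, adjusted p = 0.0641 from limma) and 0.77 (SE 0.39, adjusted p = 0.124 from limma). Under the label of both drugs ALDH3A1 differed from DMSO by 0.09 (SE 0.39, adjusted p = 0.863 from limma). Before scaling its signals were 184 and 198 under the gefitinib label, against 204 and 261 with DMSO and 235 and 179 at 0 h. The higher level under the gefitinib label is thus relative to the lower 75th percentile of these arrays.

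UGT1A6, which attaches glucuronic acid to phenols, was read by a probe (hg18 chr2:234346346-234346404) whose entry also lists transcripts of other UGT1A genes, which share their 3′ exons. Its level was 6.69% and 5.34% at 0 h, 5.34% and 5.31% with DMSO, 3.75% and 4.65% under the luteolin label, 11.3% and 8.66% under the gefitinib label, and 7.43% and 9.03% under the label of both drugs. The arrays labelled gefitinib and luteolin plus gefitinib lay above all others. UGT1A6 differed from DMSO by 0.90 (SE 0.21, adjusted p = 0.00846 from limma) under the gefitinib label and by 0.62 (SE 0.21, adjusted p = 0.0453 from limma) under the label of both drugs, below 2-fold. Before scaling its signals were 72.0 and 68.2 with DMSO against 73.7 and 54.4 under the gefitinib label, so the higher level is relative to the lower 75th percentile of these arrays. The dimmer UGT1A6 probe was well above background on the 0 h arrays alone.

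**Figure D3:**
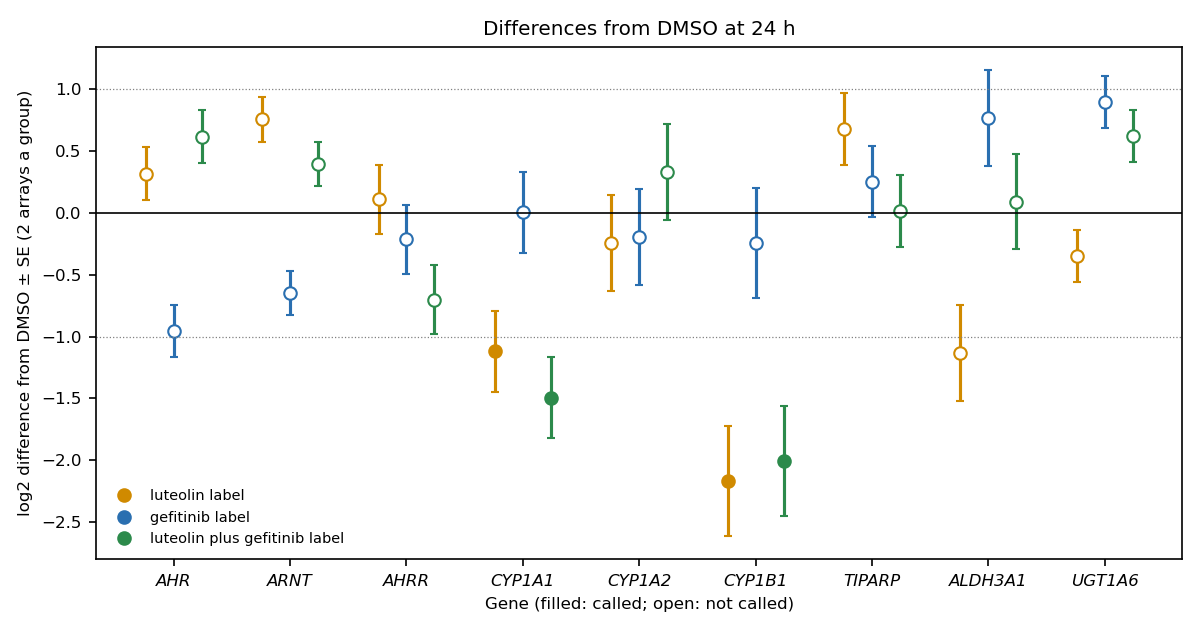
Differences of the 9 genes from DMSO at 24 h on the log2 scale (vertical axis) for the 3 drug labels, with bars of 1 SE from limma and 2 arrays a group. Filled points were called, dotted lines mark 2-fold, and the fitted CYP1A1 point under the label of both drugs lies below the limit of at least 2.29-fold because those arrays were not well above background. CYP1A1 and CYP1B1 are the called points, under the labels luteolin and luteolin plus gefitinib.

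Counted together, 2 of the 9 genes were called against DMSO under the luteolin label, where 13.4% of all genes tested were called (7.2% higher, 6.17% lower). Under the label of both drugs 2 were called, beside 19.8% of all genes (12.1% higher, 7.69% lower). With the gefitinib label 0 were called with limma, beside 29.9% of all genes (15.6% higher, 14.3% lower). An unadjusted p under 0.05 from limma was reached by 3 of the 9, beside 12038 of all 19718 genes tested. These 3, AHR, ARNT and UGT1A6, also passed the adjusted p, below 2-fold. The median difference of the 9 genes was -0.24, -0.19 and 0.09 under the labels luteolin, gefitinib and luteolin plus gefitinib. These shares rest on 9 genes and are not read as a result about the group.

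Against the untreated cells at 0 h, CYP1B1 was the gene called. It differed by -2.31 (SE 0.44, adjusted p = 0.00639 from limma) under the luteolin label, where 16.1% of all genes were called, and by -2.15 (SE 0.44, adjusted p = 0.00790 from limma) under the label of both drugs, where 19.8% were. Under the gefitinib label 0 of the 9 were called with limma, against 29% of all genes. There 4 of the 9 had an unadjusted p under 0.05 from limma, beside 11965 of all 19718 genes. AHR was higher than at 0 h by 0.69 (SE 0.21, adjusted p = 0.0391 from limma) and 0.99 (SE 0.21, adjusted p = 0.00876 from limma) under the labels that include luteolin and lower by 0.58 on the same scale under the gefitinib label, all below 2-fold. DMSO alone gave 0 calls with limma among the 9, against 0.0304% of all genes. It gave 0 of the 9 with an unadjusted p under 0.05, against 1219 of all 19718 genes. The comparisons with DMSO and those with 0 h share their drug-treated arrays.

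The labels of the single drugs differed from each other in 6 of the 9 genes, with 36.6% of all genes called. AHR was lower under the gefitinib label than under that of luteolin (-1.28, SE 0.21, adjusted p = 0.00138 from limma), as was ARNT (-1.40, SE 0.18, adjusted p = 0.000447 from limma). The enzymes CYP1A1 (1.13, SE 0.33), CYP1B1 (1.93, SE 0.44), ALDH3A1 (1.90, SE 0.39) and UGT1A6 (1.25, SE 0.21) were higher under the gefitinib label, with adjusted p from limma of 0.0175, 0.00628, 0.00355 and 0.00152. The raw signals of CYP1A1 overlapped close to background, at 41.2 and 28.4 under the gefitinib label and 21.6 and 34.1 under the luteolin label. Those of the other enzymes did not overlap. With normexp background correction AHR, CYP1B1 and ALDH3A1 were called, and ARNT (-0.74), CYP1A1 (0.78) and UGT1A6 (0.93) stayed below 2-fold. The dimmer ARNT probe differed by -0.59 (SE 0.21, adjusted p = 0.0405 from limma) and was not called. The label of both drugs differed from the luteolin label in ALDH3A1 (1.22, SE 0.39, adjusted p = 0.0348 from limma), 1 of 9 against 21% of all genes. That call was lost with normexp background correction (0.90), with quantile normalization, without a filter on dim probes, with only the groups compared, and without either 0 h array (adjusted p = 0.0506 from limma), luteolin replicate 1 (0.78) or luteolin plus gefitinib replicate 2 (0.68). The label of both drugs differed from the gefitinib label in 4 of 9, against 27% of all genes, with AHR (1.57) and ARNT (1.04) higher, CYP1B1 (-1.76) lower and CYP1A1 at least 2.30-fold lower. The dimmer ARNT probe gave 0.37 (SE 0.21, adjusted p = 0.185 from limma), and with normexp background correction AHR and CYP1B1 alone were called.

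The interaction of the drugs, the difference with both from DMSO minus the sum of the differences with each, was called at the adjusted p alone. AHR passed, at 1.26 (SE 0.30, adjusted p = 0.0137 from limma), 1 of 9 against 34.2% of all genes. Its level with both drugs was thus above the sum of the single differences, which have opposite signs. TIPARP had the next largest interaction, at -0.92 (SE 0.41, adjusted p = 0.118 from limma). The interaction of AHR missed the threshold without DMSO replicate 1 (1.25, adjusted p = 0.0505 from limma), and the treatments in the file names gave -1.89 (adjusted p = 0.00157 from limma).

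The proteins that hold or accompany AHR were followed in a list of 15 partners and chaperones, of which 14 were tested. Against DMSO, 1 was higher and 1 lower under the luteolin label, 1 and 1 under the gefitinib label, and 1 was higher under the label of both drugs. HSP90AA1, the inducible HSP90 that keeps AHR able to bind its ligand, fell by 1.24 on the log2 scale under the luteolin label (SE 0.26, adjusted p = 0.0104 from limma), and the clock factor ARNTL rose by 1.02. RELB, an NF-κB subunit that can pair with AHR, rose by 1.18 under the gefitinib label and by 1.14 under the label of both drugs, and the corepressor NRIP1 fell by 1.05 under the gefitinib label. The raw signals of RELB overlapped, at 3781 to 4746 with DMSO, 4202 to 5199 under the gefitinib label and 3370 to 6958 with both. Its mean log2 level was 2.31 at 0 h beside 1.69 with DMSO. Against 0 h, 0 genes of the list were called higher under the labels that include gefitinib. The medians of the list were 0.19, 0.01 and -0.11 under the labels luteolin, gefitinib and luteolin plus gefitinib, beside 0.08, 0.22 and 0.16 for all genes. Of all genes 13.4%, 29.9% and 19.8% were called in these comparisons.

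Among 23 other drug-metabolizing enzymes and transporters, 14 were tested. Under the luteolin label 3 were lower and 0 higher, namely ALDH1A3 (-2.07), which makes retinoic acid, the epoxygenase CYP2J2 (-1.27) and the acetyltransferase NAT1 (-1.11). Under the gefitinib label 4 were higher, CYB5A (1.66), EPHX1 (1.12), CYP3A5 (1.11) and the efflux pump ABCC2 (at least 2.44-fold), and NAT1 was 9.82-fold lower. The raw signals of CYP3A5 (2902 to 3359 with DMSO, 3107 to 3442 under the gefitinib label) and EPHX1 (1664 to 2121 and 1535 to 2558) overlapped. Those of CYB5A (14946 to 15076 and 19976 to 26628) and ABCC2 (15.4 to 20.2 and 21.4 to 36.7) did not. Under the label of both drugs ABCC2 was at least 4.74-fold higher, and ALDH3A2 (-1.33), ALDH1A3 (-1.24) and CYP2J2 (-1.002) were lower. ALDH1A3 and CYP2J2 were therefore called lower under the same labels as CYP1A1 and CYP1B1, in comparisons that share the DMSO arrays. The medians of this list were -0.08, 0.45 and -0.10, beside 0.08, 0.22 and 0.16 for all genes, of which 13.4%, 29.9% and 19.8% were called.

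A list of 20 other genes reported to rise with AHR ligands had 18 tested, with 5 higher and 3 lower under the luteolin label, 4 and 5 under the gefitinib label, and 5 and 2 under the label of both drugs. PTGS2, the inducible cyclooxygenase, rose at least 6.50-fold, 3.12-fold and 4.93-fold in this order and was not well above background with DMSO. The collagenase MMP1 rose by 1.98 and 1.07 under the labels of the single drugs. The second of these is 2.10-fold, which under the gefitinib label goes with nearly the same raw signal as with DMSO. The secreted STC2 rose by 1.17 under the luteolin label and by 1.65 under the label of both drugs but fell by 1.27 under the gefitinib label, and the cytokine IL1B fell under the labels that include luteolin (-1.68 and -1.56). The other called genes were SLC7A5 (1.13), KYNU (1.12), SERPINB2 (-1.16) and IGFBP1 (-1.31) under the luteolin label. Under the gefitinib label they were CDKN1B (1.30), SERPINB2 (1.12), VAV3 (-1.60), NFE2L2 (-1.33), AREG (-1.31) and IGFBP1, which was not well above background there, and under the label of both drugs IL6 (1.27), CDKN1B (1.17), SLC7A5 (1.15) and IGFBP1 (at least 1.94-fold lower). The raw signals of SERPINB2 overlapped, at 127 to 212 with DMSO and 128 to 235 under the gefitinib label. So did those of IL6 (188 to 269 with DMSO, 175 to 455 with both drugs) and SLC7A5 (1398 to 1462 and 1162 to 2329). The raw signals of PTGS2 under the labels that include gefitinib, and of STC2 under the label of both drugs, lay above those with DMSO. The medians were 0.28, 0.13 and 0.00, beside 0.08, 0.22 and 0.16 for all genes. The share of all genes called higher was 7.2%, 15.6% and 12.1%, and the share called lower was 6.17%, 14.3% and 7.69%.

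NRF2, encoded by NFE2L2, controls a set of antioxidant genes that overlaps in function with the AHR targets. Of 22 listed NRF2 targets 21 were tested, with 4 higher and 0 lower under the luteolin label, 4 and 2 under the gefitinib label, and 1 and 0 under the label of both drugs. The cystine transporter SLC7A11 rose 7.58-fold under the luteolin label (2.92, SE 0.23, adjusted p = 0.000402 from limma), followed by SQSTM1 (1.72), AKR1C1 (1.70) and ME1 (1.03). Under the gefitinib label SQSTM1 (1.31), ABCC3 (1.16), FTL (1.01) and FTH1 (1.01) were called higher, while GCLC (-1.70), which starts glutathione synthesis, and KEAP1 (-1.53), which restrains NRF2, fell. SQSTM1 was the gene called under the label of both drugs (1.15). The 75th percentile was lower on the arrays whose labels include gefitinib than with DMSO. There the raw signals of SQSTM1 and ABCC3 thus differed less from DMSO than the scaled levels did. The raw signals of FTL (18378 to 23429 with DMSO, 19603 to 20942 under the gefitinib label) and FTH1 (236696 to 237026 and 222793 to 239740) overlapped. The medians of this list were 0.28, 0.00 and 0.13, beside 0.08, 0.22 and 0.16 for all genes, of which 13.4%, 29.9% and 19.8% were called.

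**Figure D4:**
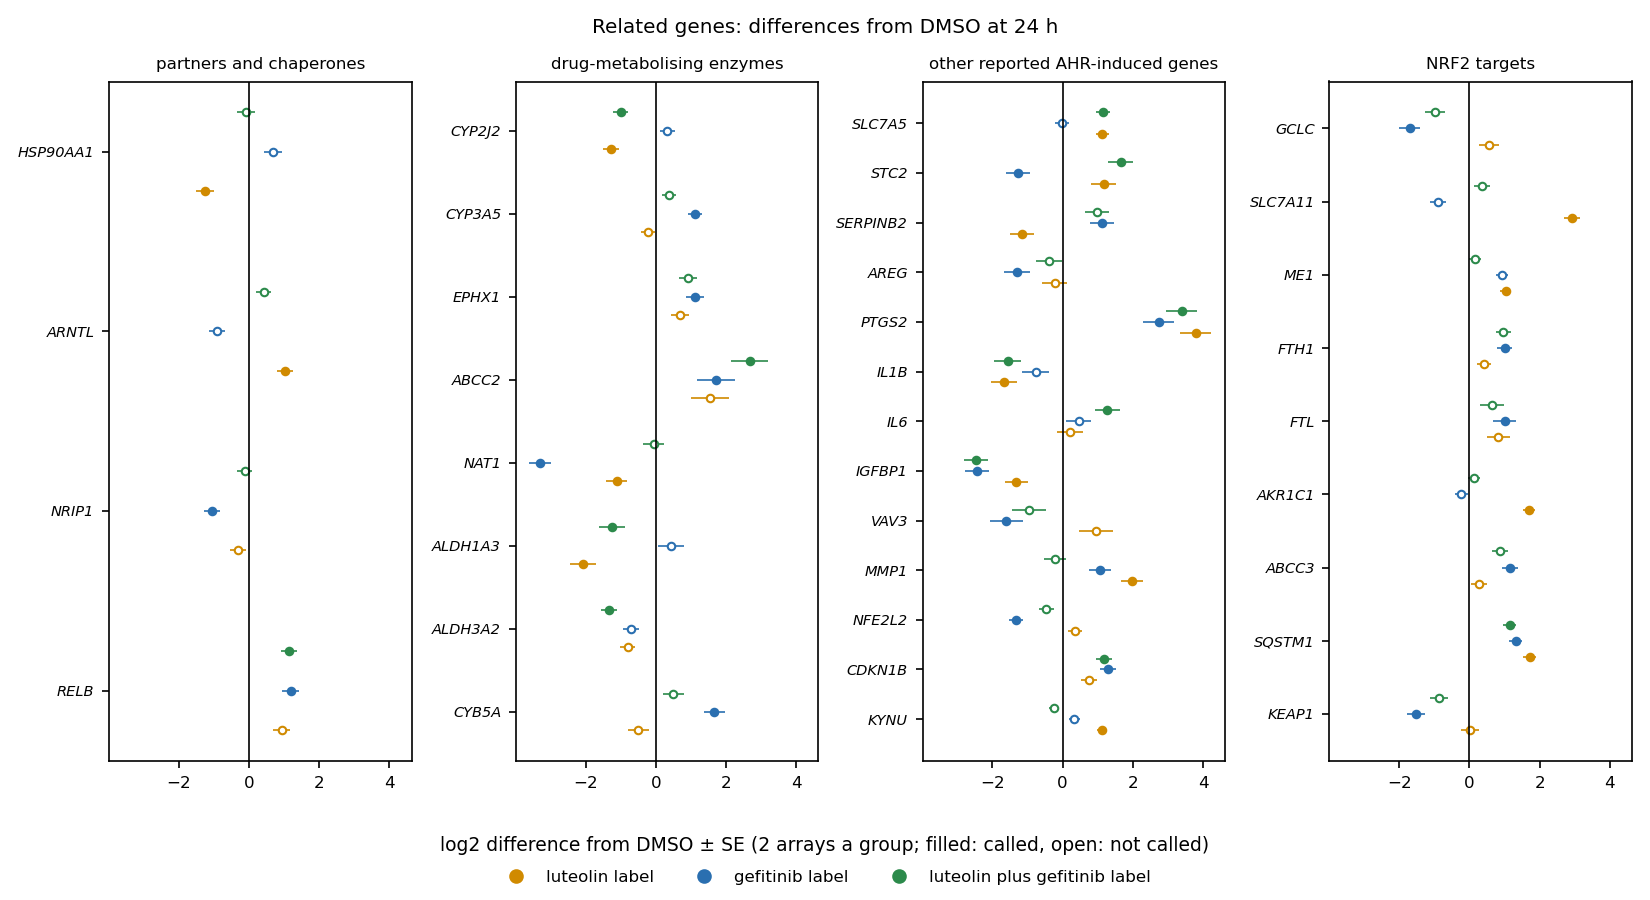
Differences from DMSO on the log2 scale (horizontal axis) for those genes of 4 lists related to AHR that were called under at least 1 drug label, with bars of 1 SE and 2 arrays a group; colors are the drug labels and filled points were called. PTGS2 and SQSTM1 are called on the higher side under all 3 labels, and ALDH1A3 and CYP2J2 on the lower side under the labels that include luteolin.

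The genes closest in pattern to 4 of the members were found by the root mean square difference of centered log2 levels over the 10 arrays. For AHR they were SPATA7 (0.11), IL10RB (0.12) and KCTD11 (0.15), where the median over 13254 genes was 0.76. For CYP1B1 they were NEXN (0.35), NPTX1 (0.37) and PREX1 (0.43), with a median of 1.19. For CYP1A1 they were ARHGAP44 (0.25), PYCARD (0.27) and FCHO1 (0.29), with a median of 0.78, and for TIPARP EML2 (0.17), MAPKAPK2 (0.18) and RPS6KA3 (0.19), with a median of 0.59.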

How the data were processed

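RNA of PC-3 cells was hybridized to 10 Agilent whole-genome arrays in 1 color, 2 for each of 5 groups. The authors deposited linear intensities from Agilent Feature Extraction (10.7.3.1 per the file headers), corrected for background and spatial trend within each array but not normalized across arrays. A series-wide table held the same signals and was used as an alternative, and probe coordinates are those of the scanner files (hg18). The deposited 0 or 1 marks of each spot (well above background, saturated, outlier) were used as filters. The share of probes well above background ran from 63.4% to 70.4% over the arrays, 0 were saturated, and 2 arrays a group limit the precision.

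Control and outlier spots were left out, spots of a probe were averaged, and each array's 75th percentile was subtracted on the log2 scale (R 4.3.3 with the data.table package, version 1.17.8). Probes had to be well above background on both arrays of a group to be kept, which left 28776 of 41000. The brightest probe stood for a gene. Names came from RefSeq for 23958 probes and otherwise from the scanner files. A 5-group model was fitted with limma 3.58.1, with Benjamini-Hochberg adjustment over all probes kept. If neither array of a group was well above background, each took the higher of its own signal and that array's lowest well-above-background signal, which gives the folds written "at least". The fit was tested on simulated data. The members and lists were chosen with earlier results of these data known.

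Named genes are the 9 members, the 3 largest called rises and falls of each list under each drug label, and the 3 genes closest in pattern to AHR, CYP1A1, CYP1B1 and TIPARP among genes well above background on all arrays. SLC7A5, KYNU, AREG, CYP3A5, ME1 and FTH1 complete small counts and were added after their values were seen. Some listed genes and markers are not reported here. The lists were partners and chaperones, drug-metabolizing enzymes, other reported AHR-induced genes and NRF2 targets. Alternatives were normexp background correction (offset 50), quantile normalization, other filters, blocks for slide and replicate number, no minimum fold, the treatments that the file names carry, only the groups compared, the median over probes, the methods' t-test against 0 h (1-sample, unadjusted and adjusted) and leaving out each array in turn.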

Additional observations from a re-analysis of the deposited data

Results flagged for a closer look

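AHR was flagged because the difference between its levels with and without luteolin was not the same in the absence and the presence of gefitinib, by a test of that difference itself. The test was passed by 1 of the 9 genes and by 34.2% of all genes, so passing it was common on these arrays. For AHR the interaction was 1.26 on the log2 scale (adjusted p = 0.0137 from limma). Without DMSO replicate 1 its adjusted p was 0.0505, and by the treatments of the file names the interaction was -1.89, so its direction depends on which of the conflicting treatments is right. Groups of 2 arrays are too small for a test of single outlying arrays.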

How the results depend on the processing

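Counts of called members are given for the labels luteolin (L), gefitinib (G) and both (LG). They were 2, 0 and 2 against DMSO, 1, 0 and 1 against 0 h, 6 for G against L, 1 for LG against L, 4 for LG against G and 1 for the interaction. Under normexp they were 1, 1 and 1 against DMSO, 3 for G against L, 0 for LG against L and 2 for LG against G, and CYP1A1 under LG was 0.00915 from DMSO. Calls over all 19718 genes also fell with normexp, from 2636, 5895 and 3903 against DMSO to 1696, 3953 and 2592. They fell from 7212 to 4679 for G against L and from 4143 to 2503 for LG against L. For LG against G they fell from 5317 to 2943. With quantile normalization G against DMSO gave 1, L and LG against 0 h gave 2 and 3, and the enzyme list gave 5 calls in place of 8. Of all 19718 genes 3188 and 3752 were then called for L and LG against 0 h. Over all genes quantile normalization also moved the higher calls from 3081 of 5895 to 2044 of 5090 for G against DMSO and from 2386 of 3903 to 1664 of 3714 for LG against DMSO. Without a filter on dim probes, or with only the groups compared in the fit, L against DMSO gave 1 and LG against L gave 0. For L against DMSO 2443 of 28090 and 2759 of 19718 genes were called in these settings, and for LG against L 4116 and 4014. Keeping only probes that were above background on every array, LG against DMSO gave 1, beside 2872 of 16289 genes. With the median over probes LG gave 2 against 0 h and 2 against L, beside 3806 and 4065 of all 19718 genes. Slide as a block gave 1 for G against 0 h and 3 for the interaction (AHR, CYP1A2 and TIPARP), beside 6165 and 6176 of all 19718 genes. With no minimum fold the counts were 3 for G and 4 for LG against DMSO, 4, 3 and 3 against 0 h, 3 for LG against L, 10 for partners and chaperones in place of 4 and 15 for NRF2 targets in place of 9. The methods' t-test, unadjusted, gave 3 for L, 0 for LG and 3 for DMSO against 0 h, and adjusted it gave 0 for L and LG. Of all 19718 genes 4332, 2524 and 2501 passed unadjusted in this order, and 0 and 1 passed adjusted for L and LG.

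By the file names the counts were 2 for G and 0 for LG against DMSO, and 1 and 0 against 0 h. They were 1 for G against L, 4 for LG against L, 6 for LG against G and 5 for the interaction. Of all 19718 genes, 2636 for G and 5895 for LG were called against DMSO, and 3175 and 5717 against 0 h. The genes called were 4143 for G against L, 5317 for LG against L, 7212 for LG against G and 8735 for the interaction. Of 99 differences of the members 47 changed sign, AHR, ARNT, ALDH3A1 and UGT1A6 under G against DMSO among them. The 17 of these that were called by label or by file name were CYP1A1 against DMSO (-1.12 for G, 0.00759 for LG). For G against L they were ARNT (0.36), CYP1B1 (-0.16), ALDH3A1 (-1.22) and UGT1A6 (-0.97), and for LG against L they were AHR (-1.57) and CYP1A1 (1.502). For LG against G they were AHR (-1.28), ARNT (-1.40), CYP1A1 (1.13), CYP1B1 (1.93), ALDH3A1 (1.90) and UGT1A6 (1.25), and for the interaction AHR (-1.89), ARNT (-1.80) and CYP1A1 (2.62). By construction this setting exchanges the drug-treated arrays, and for the other settings the cause was not tested.

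Leaving out each array in turn gave 0 to 3 calls for L, 0 to 1 for G and 0 to 3 for LG against DMSO, 1 to 2, 0 to 1 and 1 to 2 against 0 h, 0 to 0 for DMSO against 0 h, 5 to 6 for G against L, 0 to 3 for LG against L, 2 to 5 for LG against G and 0 to 2 for the interaction. The lists ranged over 2 to 6 (partners and chaperones), 7 to 9 (enzymes), 8 to 13 (other AHR-induced genes, 13 in the full fit) and 6 to 10 (NRF2 targets). The lone array left in a group is assumed to vary like the others. L against DMSO had 0 calls without luteolin replicate 1 or DMSO replicate 2, and LG against DMSO had 0 without DMSO replicate 2. The interaction had 0 without DMSO replicate 1 and 2 without luteolin replicate 1 or luteolin plus gefitinib replicate 1. The labels do not say that replicate numbers pair the arrays. Deviations correlated over 0.1 in 6 of 10 pairs of groups and not in the others (-0.0968 to 0.290), so the numbers were not taken as pairs. With the replicate number as a block L against DMSO had 3 calls, with ALDH3A1 added, partners and chaperones 5 and NRF2 targets 10, and no other count changed.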
